A study of Mus musculus with 8 samples.

Results

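The genes described here are the matrix metalloproteinases (MMPs), their tissue inhibitors (TIMPs) and the ADAM, ADAMTS and ADAMTS-like genes of mouse stromal cells from intestinal ulcers. Members were taken by gene name: 84 names began with Mmp, Timp, Adam, Adamts or Adamtsl followed by a digit, and 9 of them, Mmp3, Mmp8, Mmp10, Mmp12, Mmp13, Mmp27, Adamts2, Adamts3 and Adamts14, were left out by the rule. This gave 75 members of the 53801 genes listed. The rule itself uses names and no measured value. RNA was sequenced from stromal cells sorted as lacking CD45, a leukocyte marker, and CD31, an endothelial marker. The cells came from small-intestinal ulcers of LTBRYFP reporter mice, and all 8 libraries were from animals treated with indomethacin, an anti-inflammatory drug that blocks cyclooxygenases and can ulcerate the gut. The cells were split into a YFP-negative and a YFP-positive group of 4 libraries each, numbered 1 to 4 in both. The sources used here do not give the relation of YFP to Ltbr expression, the strain and age of the mice, or whether animals were pooled.

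MMPs are zinc-dependent proteases that cut collagens and other matrix proteins, some secreted and some held at the cell surface. TIMPs bind and block them, and TIMP3 also blocks several ADAM and ADAMTS proteases. ADAMs are membrane proteins, of which those with an active site release the outer part of growth factors, cytokines and receptors from the cell. ADAMTS proteases are secreted and cut proteoglycans, procollagens and von Willebrand factor, while ADAMTS-like proteins lack the protease domain and associate with microfibrils. In the intestinal wall some of these genes are known from fibroblasts and other mesenchymal cells that remodel matrix during repair. Others are best known from other cell types.

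By family and role, the members were 4 TIMPs, 10 secreted and 7 membrane-bound MMPs, 33 ADAMs, 16 ADAMTS and 5 ADAMTS-like genes. The zinc-binding motif His-Glu-x-x-His-x-x-Gly-x-x-His was searched in the protein translated from the longest complete coding model of each member in GENCODE M21. It was found in 46 of 75 members. Among ADAMs it was found in 20 and was lacking in 13. Among MMPs it was found in 16 of 17. The exception, Mmp1a, is annotated as a polymorphic pseudogene, so its translated model may not be that of a working protein. The motif was found in no ADAMTS-like member. Only 10 of 16 ADAMTS proteins held it in this form, but all 16 held it when any residue was allowed in place of the glycine, and 6 of the 7 proteoglycan-cutting ADAMTS proteins were among those without the glycine.

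Of the 75 members, 48 passed the count filter and were among the 15945 genes tested. A further 9 had no count in any library, namely Adam1a, Adam4, Adam6a, Adam6b, Adam20, Adam25, Adam26a, Adam26b and Adam39. Of the 7508 exon bases of Adam1a, 6584 overlap genes on the same strand, Gm42878 and Mapkapk5, where reads may not be assigned to 1 gene, and the depth floor does not cover this. The other 18 had between 1 and 83 counts summed over the 8 libraries; Timp4 had 25 and Mmp7, a protease best known from Paneth cells, had 42. A count of 3, taken as the floor, equals 0.101 to 0.256 CPM (counts scaled to a common library size) depending on the library, so lower levels were not detectable at this depth. Statements below on the tested members do not extend to the 27 that were not tested.

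The libraries held 12481608 to 29385718 counts in genes. Libraries of number 2 stood apart on the first principal component of all genes, at 92.5 and 78.7 against -46.2 to -12.4 for the other 6, and also had the fewest counts in each group. Markers of fibroblasts summed to 26410 to 52130 CPM in YFP-negative and 21730 to 35200 CPM in YFP-positive libraries. The pan-leukocyte gene Ptprc was at 2.60 ± 1.57 and 5.52 ± 4.68 CPM, and the endothelial gene Pecam1 at 25.9 ± 16.3 and 28.6 ± 14.6 CPM (mean ± SD, n = 4, YFP-negative first, as throughout). In bulk RNA, fewer cells of a type and less RNA per cell cannot be told apart.

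The 4 members below are those with a promoter in the RefSeq table among the 5 that differed between the YFP groups once replicate number was fitted as a block. The sequences are from RefSeq on GRCm38.p6, each 300 bases on the plus strand and spanning the annotated start, at chr11:46055734-46056033 for Adam19, chr1:63445641-63445940 for Adam23, chr7:66839485-66839784 for Adamts17 and chr7:82335444-82335743 for Adamtsl3. They are shown so that the start regions of members that moved in opposite directions can be set side by side. Capitals mark matches to TGANTCA, the AP-1 motif, or to GGGCGG, the GC box, on either strand.
Adam19: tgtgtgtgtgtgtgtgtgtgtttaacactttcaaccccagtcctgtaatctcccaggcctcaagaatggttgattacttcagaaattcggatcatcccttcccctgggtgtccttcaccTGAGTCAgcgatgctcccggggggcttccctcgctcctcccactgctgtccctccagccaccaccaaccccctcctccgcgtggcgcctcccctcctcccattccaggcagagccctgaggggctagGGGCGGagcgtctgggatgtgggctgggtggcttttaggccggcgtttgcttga
Adam23: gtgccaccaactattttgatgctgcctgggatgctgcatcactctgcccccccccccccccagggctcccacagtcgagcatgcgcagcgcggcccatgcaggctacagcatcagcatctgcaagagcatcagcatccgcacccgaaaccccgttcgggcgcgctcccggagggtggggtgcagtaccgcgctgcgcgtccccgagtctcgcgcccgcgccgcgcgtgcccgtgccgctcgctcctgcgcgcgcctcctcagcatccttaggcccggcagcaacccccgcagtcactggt
Adamts17: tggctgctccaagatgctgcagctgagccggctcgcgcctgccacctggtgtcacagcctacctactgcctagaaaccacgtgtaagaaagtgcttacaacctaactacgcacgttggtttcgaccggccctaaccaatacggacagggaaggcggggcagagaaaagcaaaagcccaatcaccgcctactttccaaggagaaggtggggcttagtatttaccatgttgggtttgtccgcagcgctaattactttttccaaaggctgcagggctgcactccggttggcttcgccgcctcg
Adamtsl3: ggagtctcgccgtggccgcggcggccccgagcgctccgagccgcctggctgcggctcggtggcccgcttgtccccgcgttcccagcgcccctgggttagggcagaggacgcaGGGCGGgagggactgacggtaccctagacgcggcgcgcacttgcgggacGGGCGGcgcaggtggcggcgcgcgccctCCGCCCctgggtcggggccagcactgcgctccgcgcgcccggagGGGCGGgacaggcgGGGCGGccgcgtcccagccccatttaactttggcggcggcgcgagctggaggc

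The window of Adam19, the member that rose, held 1 AP-1 match and 1 GC box. Among the 3 members that fell, Adamtsl3 held 5 GC boxes and no AP-1 match, and Adam23 and Adamts17 held neither. TATAAA was searched on both strands and was in none of the 4 windows. Of 32851 RefSeq promoters of this length, 7.81% held TGANTCA, 35.7% held GGGCGG and 13.6% held TATAAA. CG dinucleotides numbered 11 in Adam19, 31 in Adam23, 17 in Adamts17 and 46 in Adamtsl3, against a median of 7 over all promoters. A match is a description of letters in the window and not a binding site.

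Levels were first compared between genes per exon length, as TPM (counts per exon length, scaled to the same total in each library). The most abundant member was Mmp2, the gelatinase A gene, at 879 TPM over the 8 libraries, with a range of 665 to 1190. It was followed by Adamts1, a proteoglycan-cutting ADAMTS, at 417 TPM, Mmp14, the membrane MMP that activates MMP2, at 307 TPM, and Timp2, which takes part in that activation, at 235 TPM. Adamts4, a further proteoglycanase, was at 177 TPM, Adam9 at 122 TPM and Timp1 at 88.9 TPM. At the other end, Adam22 was at 0.161 TPM and Adamts20 at 0.152 TPM.

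**Figure D1:**
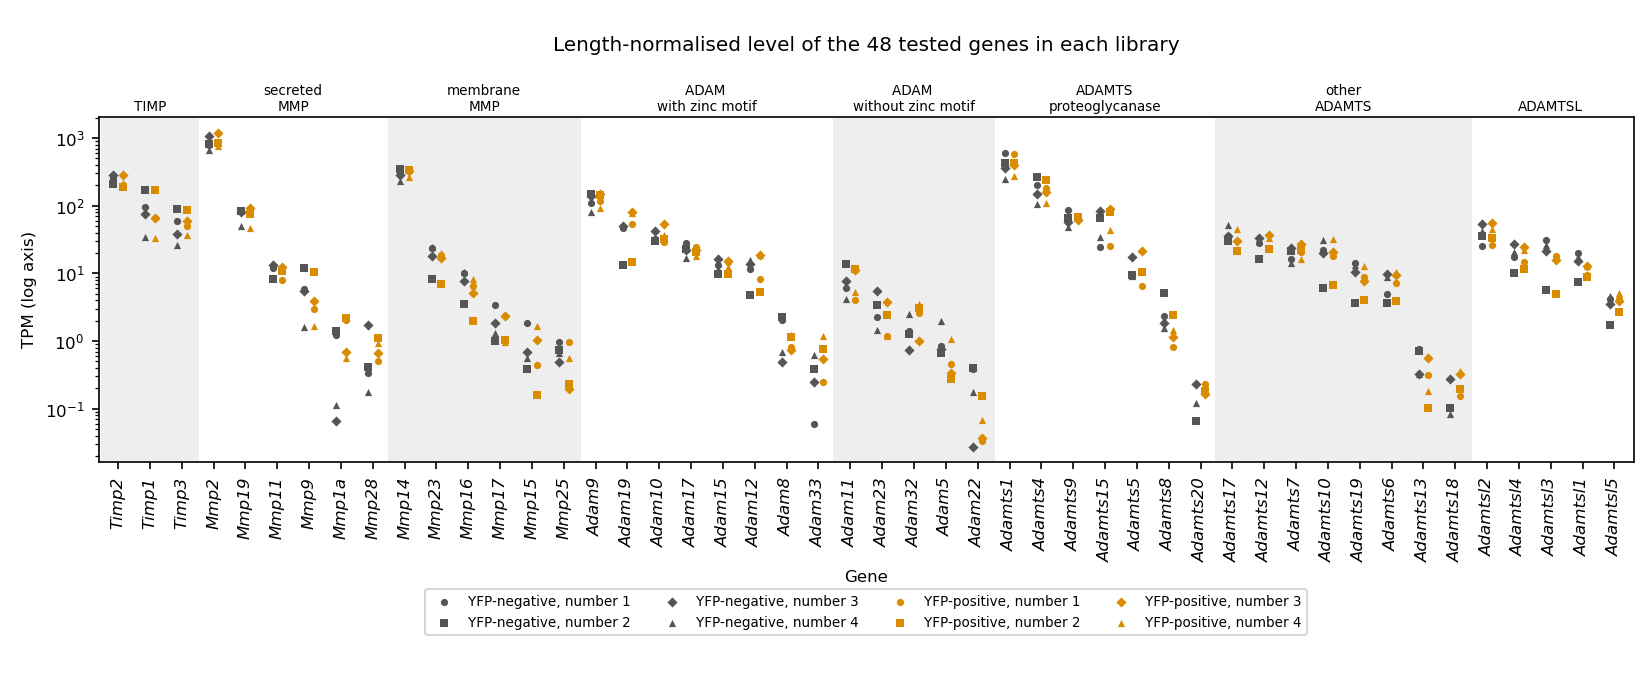
TPM (log axis) of the 48 tested members, ordered by role, with each point 1 library of the YFP-negative or YFP-positive group; values of 0 (Adamts18 and Adamts20 in YFP-negative 1) cannot be drawn on this axis. Mmp2, Adamts1 and Mmp14 lie highest, and the points of both groups overlap for each gene.

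Summed over each class, the level per exon length was close in both groups. Secreted MMPs summed to 936 ± 185 TPM in YFP-negative and 1009 ± 205 TPM in YFP-positive libraries, and the proteoglycanase ADAMTS genes to 727 ± 212 and 735 ± 161 TPM. TIMPs summed to 394 ± 72.4 and 366 ± 72.9 TPM, membrane MMPs to 325 ± 42.8 and 343 ± 32.6 TPM, and ADAMs with the zinc motif to 244 ± 32.01 and 270 ± 49.8 TPM. ADAMs without the motif came to 14.1 ± 4.38 and 13.7 ± 4.27 TPM, other ADAMTS genes to 122 ± 28.5 and 117 ± 31.3 TPM, and ADAMTS-like genes to 97.8 ± 26.6 and 87.5 ± 24.1 TPM. In each of these 8 classes the group means lay closer than 1 SD.

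The question of the design is whether YFP-positive stromal cells differ from YFP-negative ones. With group alone in the edgeR quasi-likelihood fit, 0 of 48 tested members were called at a Benjamini-Hochberg adjusted p of 0.05, as were 0 of all 15945 genes (0% called). At an unadjusted p of 0.05 there were 0 members and 325 genes (2.04%) in the same fit. DESeq2 and limma voom without the block also called 0 members. No member had groups that did not overlap, against 247 genes (1.55%). The labels do not state what equal replicate numbers share, but libraries of equal number deviated together, and the number was therefore also fitted as a block. That fit called 5 of 48 members (10.4%), against 364 of all genes (2.28%). By direction, 1 member rose (2.08%), against 111 genes (0.696%), and 4 members fell (8.33%), against 253 genes (1.59%). Leaving out number 1, 2, 3 or 4 gave 3, 7, 2 and 4 called members and 194, 426, 157 and 167 called genes. Every "rose", "fell" or "called" below is from the blocked edgeR fit unless another tool is named. The median log2 fold change of the 48 members was -0.07, with 18 above 0 and 30 below, and that of all genes was 0.0048.

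**Figure D2:**
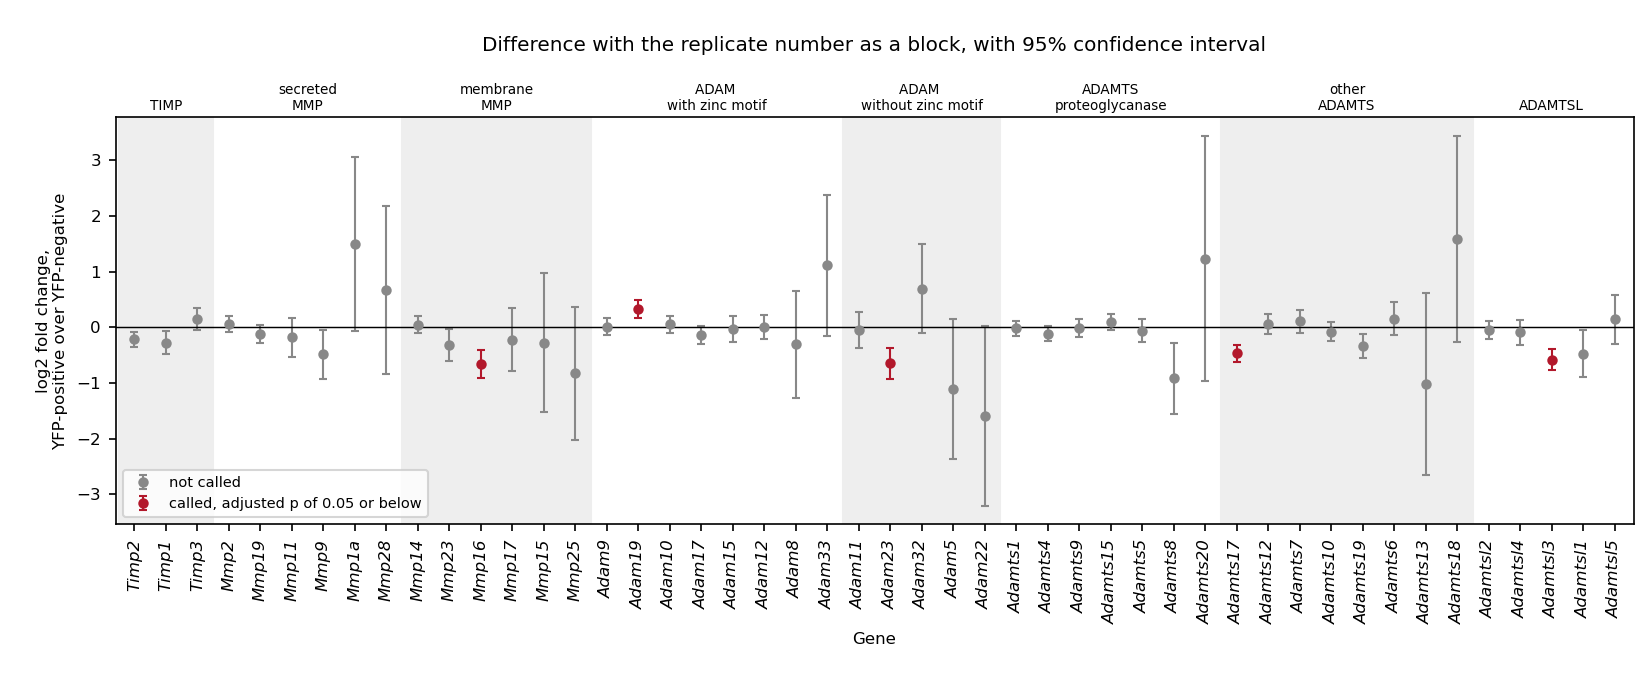
Log2 fold change of YFP-positive over YFP-negative cells in the blocked edgeR fit for the 48 tested members, by role, with bars for the 95% confidence interval. The 5 called members are in red: Adam19 lies above 0, and Adam23, Adamts17, Adamtsl3 and Mmp16 lie below.

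Among the TIMPs, none was called by edgeR with the block. Timp2 was the nearest to a call: it measured 519, 465, 569 and 601 CPM in YFP-negative 1 to 4 and 457, 405, 507 and 479 CPM in YFP-positive 1 to 4. The YFP-positive library was lower in 4 of 4 pairs, although the groups overlapped, and the log2 fold change was -0.22 (95% CI -0.35 to -0.09, adjusted p = 0.0818, edgeR with the block). DESeq2 and limma voom with the block did call Timp2, at adjusted p of 0.0096 and 0.0198. Timp1, a secreted inhibitor that is induced in wounds, measured 44.1, 88.3, 33.8 and 20.1 CPM against 33.03, 83.4, 26.9 and 16.6 CPM. It too was lower in 4 of 4 pairs, by -0.27 (95% CI -0.49 to -0.06, adjusted p = 0.251 in the same fit), a difference much smaller than that between numbers. Timp3, which binds to the matrix, was at 242 ± 126 and 256 ± 96.9 CPM, with a log2 fold change of 0.15 and an adjusted p of 0.642.

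Of the secreted MMPs none was called. Mmp2 measured 1405, 1576, 1862 and 1473 CPM in YFP-negative and 1682, 1581, 1843 and 1440 CPM in YFP-positive libraries. Neither group was above the other beyond its spread, and the interval of the log2 fold change was -0.08 to 0.19 around 0.05. Mmp9, gelatinase B, which is abundant in neutrophils, measured 10.96, 24.2, 9.98 and 3.79 CPM against 6.10, 20.5, 6.40 and 3.29 CPM. It was lower in 4 of 4 pairs, with a log2 fold change of -0.49 (95% CI -0.92 to -0.06, adjusted p = 0.353, edgeR with the block). The 8 neutrophil markers summed to 1.45 to 4.92 CPM in YFP-negative and 3.00 to 9.08 CPM in YFP-positive libraries. Of these markers 3 were tested and none was called, and their part in the values of Mmp9 was not tested. Mmp19 was at 148 ± 22.6 and 137 ± 29.5 CPM, and Mmp11, known from stroma around tumours, at 18.6 ± 4.88 and 16.4 ± 2.90 CPM. Mmp1a had the largest log2 fold change of this class, 1.495, at only 0.779 ± 0.786 and 1.52 ± 1.03 CPM and with an adjusted p of 0.488.

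Of the membrane MMPs, Mmp16 fell. It encodes MT3-MMP, a membrane-anchored activator of MMP2, and lies at chr4:17852893-18119145 on GRCm38 (ENSMUSG00000028226). It measured 45.3, 17.6, 34.5 and 59.3 CPM in YFP-negative 1 to 4, and 32.6, 9.53, 20.7 and 39.8 CPM in YFP-positive 1 to 4. The positive library was the lower of each pair, yet the groups overlapped because number 2 was low and number 4 high in both. The log2 fold change was -0.65 ± 0.12 (SE), with a 95% CI of -0.90 to -0.40 and an adjusted p of 0.00659 in the blocked edgeR fit. Without replicate 3 the adjusted p was 0.0675. Mmp14, with the highest level of the class, measured 986 ± 156 and 1020 ± 153 CPM, and the interval of its log2 fold change was -0.10 to 0.20. Mmp25 had the largest log2 fold change of the class, -0.83, at 2.14 ± 0.562 and 1.44 ± 1.10 CPM with an adjusted p of 0.691.

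Among ADAMs with the zinc motif, Adam19 rose. It encodes meltrin beta, a protease that can process neuregulin, and lies at chr11:46055992-46147343 on the plus strand (ENSMUSG00000011256). It measured 174, 54.3, 185 and 246 CPM in YFP-negative and 217, 57.7, 266 and 313 CPM in YFP-positive libraries. Each positive library was higher than the negative one of its number, and both number 2 libraries lay far below the other 6. The log2 fold change was 0.33 ± 0.08 (SE), with a 95% CI of 0.17 to 0.49 and an adjusted p of 0.031 in the blocked edgeR fit. This call was lost without replicate 1 (0.094), 3 (0.277) or 4 (0.136). Exons of Adam19 overlap the opposite-strand genes Gm16033 and Gm16034, whose reads could not be told apart if strand was not used in counting. Such overlap was present in 12 tested members, Adam19, Timp3, Mmp19, Adam15 and Adamts9 among them. Smooth muscle markers moved with Adam19, summing to 391 to 695 CPM in YFP-negative and 479 to 1045 CPM in YFP-positive libraries. Their sum was higher in 4 of 4 pairs, and 3 of 7 rose. The part of these markers in the result was not tested.

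The main sheddases were not called. Adam10 was at 94.9 ± 12.2 and 98.9 ± 18.9 CPM, with a log2 fold change between -0.11 and 0.21. Adam17, which releases TNF, measured 105, 93.6, 82.4 and 79.2 CPM against 99.3, 80.9, 74.0 and 73.4 CPM. It was lower in 4 of 4 pairs, by -0.14 (95% CI -0.30 to 0.02, adjusted p = 0.543, edgeR with the block). Adam9 was at 273 ± 60.4 and 273 ± 45.9 CPM, and Adam12, a marker of activated mesenchymal cells, at 69.9 ± 33.8 and 71.0 ± 37.5 CPM. Adam15 was at 44.0 ± 7.25 and 43.0 ± 7.59 CPM. Adam8, best known from leukocytes, was at 3.56 ± 2.30 and 2.47 ± 0.742 CPM, and Adam33 had the largest log2 fold change of the class, 1.11, at 1.06 ± 0.88 and 1.99 ± 1.22 CPM.

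Of the ADAMs without the motif, which act in adhesion rather than proteolysis, Adam23 fell. It lies at chr1:63445891-63596276 (ENSMUSG00000025964) and is known from neurons as a partner of the secreted LGI proteins. Its level was 21.1, 35.7, 50.9 and 17.1 CPM in YFP-negative and 12.3, 24.3, 30.6 and 11.96 CPM in YFP-positive libraries. Here numbers 2 and 3 were high and 1 and 4 low in both groups, and the positive library was lower in each pair. The log2 fold change was -0.65 ± 0.13 (SE), with a 95% CI of -0.92 to -0.38 and an adjusted p of 0.0126 in the blocked edgeR fit. The adjusted p was 0.0503 without replicate 1 and 0.16 without replicate 3. Enteric glia markers moved the same way, at 7.39 to 46.1 CPM in YFP-negative and 4.48 to 7.53 CPM in YFP-positive libraries; their part was not tested. Adam22, a paralog of Adam23 that also binds LGI proteins, was at 2.01 ± 1.39 and 0.578 ± 0.465 CPM, with a log2 fold change of -1.59 and an adjusted p of 0.459. Adam11, the third of these neuronal ADAMs and the most abundant by TPM in the class, was at 25.0 ± 13.5 and 23.9 ± 10.7 CPM.

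**Figure D3:**
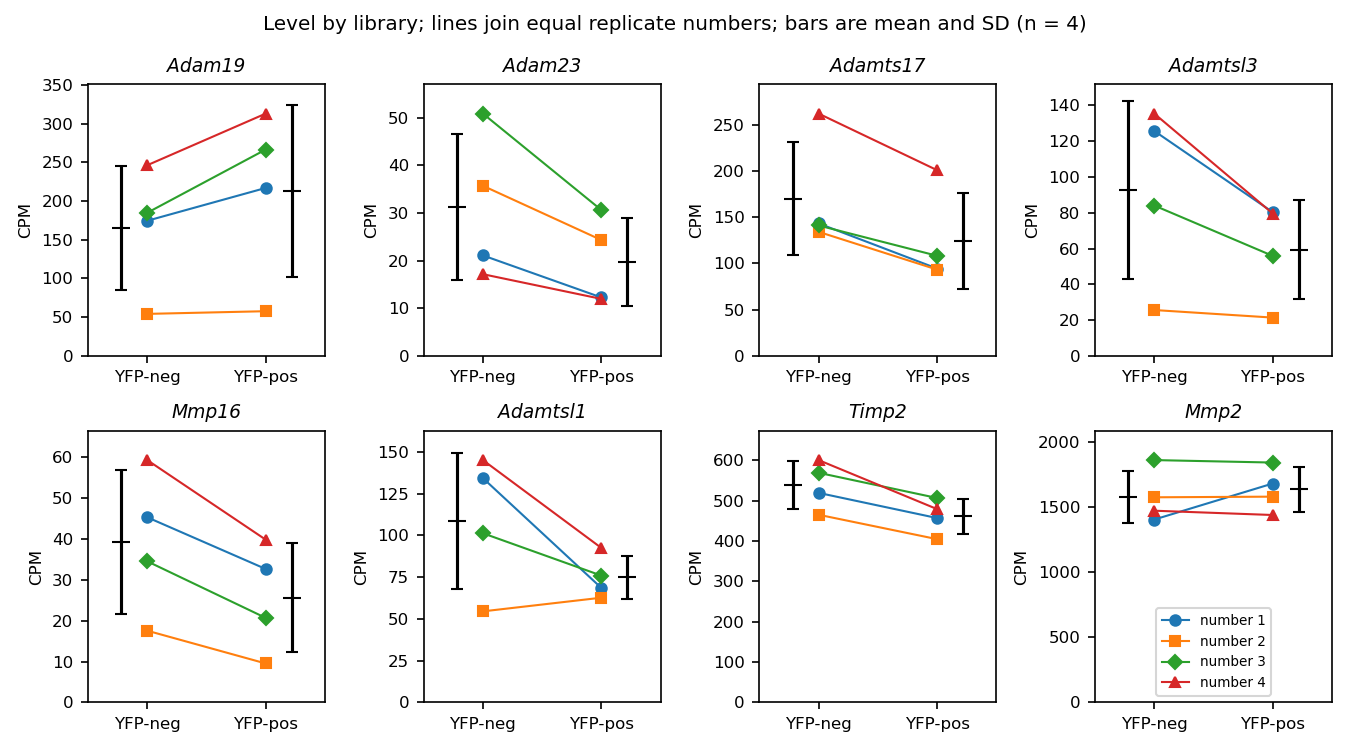
CPM of 8 members in each library, with lines joining libraries of equal replicate number and bars for the mean ± SD of 4 libraries. Lines rise for Adam19 in 4 of 4 pairs and fall in 4 of 4 for Adam23, Adamts17, Adamtsl3, Mmp16 and Timp2, while Mmp2 goes both ways.

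None of the proteoglycanase ADAMTS genes was called. Adamts1 measured 1678, 1304, 986 and 873 CPM in YFP-negative and 1772, 1257, 969 and 820 CPM in YFP-positive libraries. Libraries of equal number lay close together and the 95% CI of the log2 fold change was -0.15 to 0.10. Adamts4 was lower in 4 of 4 pairs, at 501, 738, 372 and 337 CPM against 497, 649, 350 and 298 CPM, with a log2 fold change of -0.12 and an adjusted p of 0.538. Adamts9 was at 548 ± 108 and 542 ± 82.8 CPM, Adamts15 at 304 ± 145 and 321 ± 146 CPM, and Adamts5 at 69.0 ± 18.8 and 68.5 ± 28.0 CPM. Adamts20 had the largest log2 fold change of the class, 1.23, at 0.532 ± 0.466 and 0.973 ± 0.234 CPM with an adjusted p of 0.775.

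Among the other ADAMTS genes Adamts17 fell. It encodes a secreted protease associated with fibrillin microfibrils and lies at chr7:66839735-67153171 (ENSMUSG00000058145). Its values were 143, 134, 141 and 262 CPM in YFP-negative and 94.5, 93.4, 108 and 201 CPM in YFP-positive libraries. Number 4 was the highest in both groups, and without that number the groups would not overlap. The log2 fold change was -0.47 ± 0.07 (SE), with a 95% CI of -0.62 to -0.32 and an adjusted p of 0.0016 in the blocked edgeR fit, and it was called in 12 of 12 other blocked settings. Adamts19, its closest relative, named after its values were seen, was at 82.9 ± 40.4 and 63.9 ± 30.3 CPM, with a log2 fold change of -0.34 and an adjusted p of 0.128 in the blocked edgeR fit; it was called by limma voom, with the looser count filter and without replicate 2. Adamts10, which also acts with fibrillin, was at 94.1 ± 56.9 and 87.2 ± 49.8 CPM with a log2 fold change of -0.08. Adamts12 was at 166 ± 47.7 and 169 ± 30.5 CPM. Adamts18 had the largest log2 fold change of the class, 1.58, at 0.642 ± 0.583 and 1.41 ± 0.53 CPM with an adjusted p of 0.558.

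Among the ADAMTS-like genes Adamtsl3 fell. It encodes a secreted glycoprotein of the matrix and lies at chr7:82335694-82614450 (ENSMUSG00000070469), on the same chromosome as Adamts17. It measured 126, 25.6, 84.0 and 135 CPM in YFP-negative and 80.3, 21.4, 55.9 and 79.6 CPM in YFP-positive libraries. The positive library was lower in each pair, and number 2 was lowest in both groups. The log2 fold change was -0.58 ± 0.09 (SE), with a 95% CI of -0.77 to -0.39 and an adjusted p of 0.00209 in the blocked edgeR fit, and it was called in 12 of 12 other blocked settings. Adamtsl1 measured 134, 54.5, 101 and 145 CPM against 68.5, 62.7, 75.9 and 92.5 CPM. It was lower in 3 of 4 pairs and higher in number 2, with a log2 fold change of -0.47 (95% CI -0.90 to -0.05) and an adjusted p of 0.381 in the blocked edgeR fit. It was called without replicate 2 (adjusted p = 0.00067, edgeR), with the looser count filter (2e-05, edgeR), by DESeq2 (0.0248) and by limma voom (0.00556). Adamtsl2 was at 178 ± 56.5 and 168 ± 41.8 CPM.

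The summed CPM of fibroblast markers was lower in YFP-positive libraries in 4 of 4 pairs. Of the 8 markers 5 fell, Col1a1, Col1a2, Col3a1, Dcn and Lum, which is the direction of the 4 members that fell. Pdgfra, Pdpn and Thy1 were not called, with log2 fold changes of -0.0037, -0.11 and -0.38. Pdgfra was at 1668 ± 266 and 1670 ± 312 CPM. Pericyte markers summed to 1359 to 1750 and 1196 to 1488 CPM. That sum was lower in 4 of 4 pairs through Rgs5, which fell from 1140 ± 196 to 886 ± 143 CPM, while the other 4 tested pericyte markers had log2 fold changes above 0 and Cspg4 rose; the median of the list was 0.15. Epithelial markers summed to 17.5 to 46.1 and 12.2 to 156 CPM, pan-leukocyte markers to 7.18 to 27.6 and 14.96 to 50.7 CPM, and macrophage markers to 25.0 to 43.1 and 25.0 to 51.3 CPM, with no gene of these 3 lists called. The part of these shifts in the members' results was not tested. Mitochondrially encoded genes took 7.71% to 12.4% of counts and were lower in YFP-positive cells in 4 of 4 pairs; without them the same 5 members were called.

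The authors' deposited table of the same comparison gave an adjusted p for 50 members and called 7 of them at 0.05, against 496 of 16502 genes (3.01%). In the authors' deposited table Adam19 had a log2 fold change of 0.32 with an adjusted p of 0.00937. The authors' deposited table listed -0.66 for Adam23, -0.48 for Adamts17, -0.59 for Adamtsl3 and -0.66 for Mmp16. The other two called in the authors' deposited table were Adamtsl1, at -0.47 with an adjusted p of 0.0313, and Timp2, at -0.23 with an adjusted p of 0.00806. Those 7 were also the members that DESeq2 called here with the block.

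More members were called between replicate numbers than between the YFP groups, and the same held for all genes. The test between numbers covers 3 number terms jointly, so its counts and those for YFP are not on the same footing. In the blocked edgeR fit 34 of 48 members (70.8%) differed between numbers at an adjusted p of 0.05, against 6270 genes (39.3%). The ratio of the highest to the lowest mean of a number ranged from 1.24, in Timp2, to 6.31, in Mmp9, among these 34. The lowest adjusted p values between numbers were 6.07e-09 for Adam19, 6.45e-09 for Adamts10 and 1.68e-08 for Adamts15. Adamts10 measured 93.8, 29.3, 85.4 and 168 CPM in YFP-negative libraries, and its fold between numbers was 5.28. Adamts15 ran differently, at 132, 397, 448 and 238 CPM in YFP-negative and 150, 463, 421 and 252 CPM in YFP-positive libraries, so that number 1 was lowest.

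Both number 2 libraries lay below the other 6 in 14 members (29.2%), against 3332 genes (20.9%), and above them in 8 members (16.7%), against 2637 genes (16.5%); the latter share is near the background. The 14 included Adam12, Adam15, Adam19, Adamts10, Adamts12, Adamtsl1, Adamtsl3 and Mmp16, and the 8 included Timp1, Timp3, Mmp9, Adam9 and Adamts4. Fibroblast markers were also at their lowest in number 2 of each group, 26410 and 21730 CPM, as was sequencing depth, and the part of either was not tested. Without replicate 2, 29 members and 3299 genes (20.3%) still differed between numbers.

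**Figure D4:**
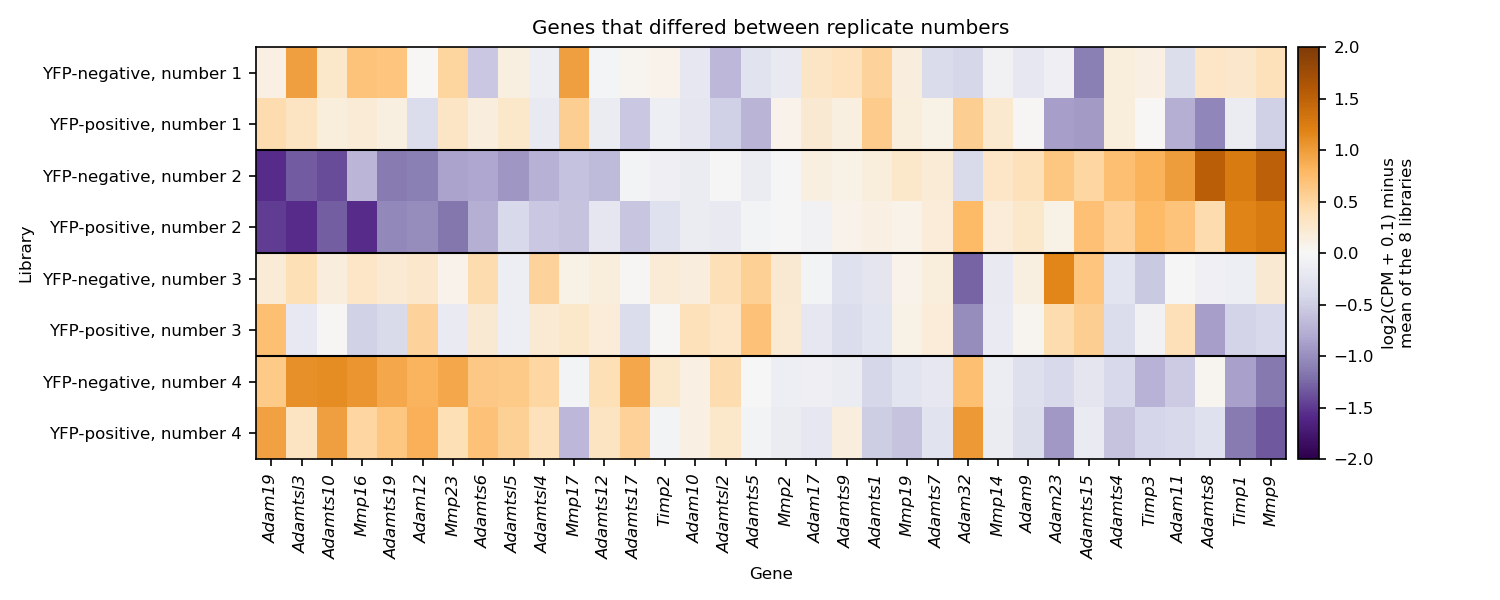
Heat map of the 34 members that differed between replicate numbers: each column is a gene, each row a library, and colour is log2(CPM + 0.1) minus the gene's mean over the 8 libraries. Libraries of equal number mostly have similar colours in both YFP groups, and number 2 stands at one end for genes such as Adam19 and Timp1.

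Genes that act with the members were read from lists of other pathway genes, whose counts stand against 0.696% of all genes higher and 1.59% lower in the same fit; with 8 to 29 tested genes a list, 1 gene is a large share. Of 16 tested inhibitors and activators of MMPs outside the families, 3 rose and 2 fell, and the median of the log2 fold changes was -0.06. Plau, the urokinase gene, was at 128 ± 69.4 and 176 ± 115 CPM and rose by 0.42 on the log2 scale (adjusted p = 0.0101, edgeR with the block). Pcsk6, a proprotein convertase, and Papln, an ADAMTS-related matrix gene, also rose, and Tfpi2, a protease inhibitor, and Thbs1, thrombospondin 1, fell. Reck, a membrane-anchored inhibitor of MMPs, was at 61.2 ± 8.12 and 57.5 ± 7.39 CPM with an adjusted p of 0.823. Of 8 partners of ADAM10 and ADAM17, none was called.

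Of 29 tested substrates shed by ADAM10 or ADAM17, 2 rose and none fell. They were Nrg1, neuregulin 1, at 794 ± 150 and 1060 ± 140 CPM (log2 fold change 0.43, adjusted p = 0.00659, edgeR with the block), and Sdc1, syndecan 1, at 134 ± 36.6 and 163 ± 42.9 CPM. Of 8 tested ADAMTS substrates none rose and 3 fell: Dcn (decorin), Tnxb (tenascin XB) and Fbn1 (fibrillin 1). The median log2 fold change of this list was -0.01. Vcan (versican) was at 692 ± 133 and 801 ± 230 CPM, with a log2 fold change of 0.19 (adjusted p = 0.234, edgeR with the block). Dcn, which is also in the fibroblast marker list, was at 6083 ± 1026 and 4546 ± 776 CPM. Of 9 other proteases of the metzincin clan, 2 rose, Pappa and Adamdec1, the latter at 3062 ± 459 and 3789 ± 333 CPM. Of the 9 MMP and ADAMTS genes left out by the rule, Mmp10 rose and Mmp12 and Adamts2 fell.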

How the data were processed

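RNA was sequenced from 8 libraries, 4 per group, grouped and numbered by their titles; the kit was a stranded low-input total RNA kit, per the labels' protocols. Per the submitters' processing notes, GRCm38 was the build, and STAR 2.7.3a, featureCounts 2.0.1, cutadapt 3.4 and DESeq2 were used; the sources used here give neither the annotation release nor whether counting used strand. The authors deposited raw counts per gene, which every test here used. The deposited table also holds a score, the counts divided by size factors and rounded, per the file headers, and the authors' log2 fold changes and p-values.

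The fit was edgeR 4.0.16 (R 4.3.3): filterByExpr by group, TMM factors, robust quasi-likelihood, two-sided, Benjamini-Hochberg adjustment over 15945 genes, called at 0.05, with group alone and then with the replicate number as a block. Differences between numbers were tested on the 3 number terms of the blocked fit. CPM uses TMM factors, and TPM uses union exon lengths of GENCODE M21, in which 53706 of 53801 identifiers had an entry. Total counts ranged from 12481608 to 29385718, so that before TMM scaling 1 CPM is 12.5 counts in the smallest library. Values near the floor cover counting error only. Scripts were tested on simulated data.

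The pairing of equal numbers rests on the data, since no label states it: deviations from the group means correlated at 0.233, 0.487, 0.376 and 0.376 for equal numbers and at most at 0.0456 otherwise. No libraries of the same group agreed within sampling noise, and libraries of different groups were not compared in this way. The labels do not state whether libraries are separate animals, and the p-values then reflect the spread among these samples alone. Alternatives were DESeq2 1.42.0, limma 3.58.1 voom with quality weights, other scaling factors, looser and stricter count filters, mitochondrial genes left out, and each replicate left out.

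The members and lists were chosen with earlier results of these data known. Members are given values where they are a fixed set of inhibitors, proteases and relatives, were called, had the highest TPM or the largest fold change of their class, or were among the 3 lowest p-values between numbers; others are named in counts, chosen after their values were seen.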

Additional observations from a re-analysis of the deposited data

Results flagged for a closer look

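In each group of 4 libraries, the named members that were tested were examined for 1 library far from the other 3, which gave 70 groups. Chance flags about 1 in 20, and the flags, all given here, were no more frequent than that. Adamts17 stood out in number 4 of both groups, at 262.1 CPM in YFP-negative 4, where the others were at 134.2 to 143.3 CPM, and at 200.9 CPM in YFP-positive 4, where the others were at 93.36 to 108.3 CPM. Mmp19 was at 93.38 CPM in YFP-positive 4, below the 149.0 to 156.5 CPM of the other YFP-positive libraries.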

How the results depend on the processing

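Without the block, edgeR called 0 genes of all those tested, DESeq2 called 2 and the replicate block 364; of the members, the fit without the replicate block called 0 and the block 5. With the block, limma voom called 8 members and 616 genes (3.86%, against 2.28% by edgeR), and leaving out 1 replicate number gave 2 to 7. Adamts17 and Adamtsl3 were called in 12 of 12 other blocked settings, Mmp16 in 11, Adam23 in 10 and Adam19 in 9. The direction of the 5 called members was the same in these settings. None of the members that changed sign was called. Their log2 fold changes with library sizes alone were 0.038 (Adam11), 0.050 (Adam15), 0.065 (Adamts1), 0.0088 (Adamts10), 0.026 (Adamts5), 0.079 (Adamts9) and 0.036 (Adamtsl2). With voom they were 0.050 (Adam11), -0.0091 (Adam9) and 2.0e-05 (Adamts5). Adam12 was at -0.0054 with DESeq2 and -0.0053 with RLE factors, Adamts9 at 0.0052 with upper-quartile factors, and Adam9 at -0.0010 without the replicate block. With 1 replicate left out, the ranges were -0.0069 to 0.074 for Adam10, -0.21 to 0.076 for Adam11, -0.090 to 0.13 for Adam12, -0.15 to 0.036 for Adam15, -0.61 to 0.0014 for Adam8 and -0.066 to 0.042 for Adam9. They were -0.054 to 0.00073 for Adamts1, -0.067 to 0.12 for Adamts12, -0.14 to 0.067 for Adamts5, -0.11 to 0.062 for Adamts9, -0.040 to 0.10 for Mmp14 and -0.013 to 0.083 for Mmp2. Library sizes alone also gave higher log2 fold changes in the named members that kept their sign. Adam19 was at 0.41 with library sizes alone against 0.33 with TMM factors, and Timp2 at -0.13 against -0.22. The cause of the sign changes was not tested. Members under about 3 CPM rest on few counts, and their intervals are wide.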
